A study of Mus musculus with 4 samples.

Results

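Mrap and 7 genes that carry a signal from cell-surface receptors through cyclic AMP (cAMP) were examined by RNA-seq in differentiating 3T3-L1 cells. The 8 genes were Mrap, Gnas, Adcy6, Prkaca, Prkar1a, Prkar2b, Creb1 and Pde4d, chosen by symbol so that each step of the pathway was represented. All 8 were among the 13085 genes measured, and each had at least 1 FPKM in at least 1 sample. FPKM counts fragments relative to transcript length and to the depth of the library, so that levels of different genes can be compared per length.

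The 3T3-L1 line is a murine preadipocyte line that stores lipid after treatment with an adipogenic mixture. Stable lines were made with the empty FLAG vector (FLAG), with the same vector expressing CACUL1 (FLAG-CACUL1), with a hairpin against luciferase (sh-Luc) or with a hairpin against CACUL1 (sh-CACUL1). FLAG lines were selected with G418 and hairpin lines with hygromycin B, as resistant colonies. All 4 lines received a mixture of IBMX (0.5 mM), rosiglitazone (5 μM), dexamethasone (1 μg/mL) and insulin (5 μg/mL), and later medium with insulin alone, and RNA was extracted after 8 days of differentiation. Each condition had 1 sample, so differences have no replicate check, no p-value could be given, and a line cannot be told apart from its treatment. A change is given as the log2 ratio of FPKM + 1 against the control with the same vector, and 2-fold was the cut-off. The spacing of low FPKM values gave estimates of 14500000 fragments for FLAG and 14300000 for FLAG-CACUL1, with 24000000 for sh-Luc and 15000000 for sh-CACUL1.

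Cyclic AMP is a second messenger of hormones that act through G protein-coupled receptors. An activated receptor releases the stimulatory α subunit, encoded by Gnas, which turns on adenylyl cyclase, and the cAMP made there frees the catalytic subunits of protein kinase A (PKA) from its regulatory subunits. PKA phosphorylates CREB and, in fat cells, proteins of the lipid droplet, and phosphodiesterases end the signal. IBMX inhibits many phosphodiesterases, and it is used in adipogenic mixtures because cAMP promotes early differentiation. Mrap is a small membrane protein that brings the ACTH receptor, encoded by Mc2r, to the cell surface, and it is known in adrenal cortex and in fat.

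The labels call the cells preadipocytes, but genes of mature adipocytes were abundant at day 8. The summed FPKM of 14 adipocyte markers was 9012 in FLAG and 965 in FLAG-CACUL1 cells, with 1841 in sh-Luc against 18513 in sh-CACUL1 cells. The summed FPKM of 11 preadipocyte and fibroblast markers was 7308, 11377, 5292 and 970, respectively, most of it from collagen genes and Fn1. The markers did not move as one, since 7 were at least 2-fold below sh-Luc upon depletion while Dlk1 (0.220 FPKM in sh-Luc, 21.2 in sh-CACUL1) and Thy1 (0.663 and 34.3 FPKM) were higher. Over all genes 16.4% were at least 2-fold lower in that comparison and 4.94% higher. Cacul1 itself had 9.61 FPKM in FLAG and 11.8 in FLAG-CACUL1 cells, with 10.2 in sh-Luc against 5.39 in sh-CACUL1 cells. Whether transcripts of the construct were counted in that row is not known. In RNA from whole cultures, fewer cells of a type and less RNA per cell cannot be told apart.

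Mrap lies on the plus strand of chromosome 16 of GRCm38 (chr16:90738207-90749785), and the transcript measured has 3 exons and 1001 bases. The primers that the study used to measure Mrap by RT-qPCR are shown because they fix which part of the transcript an independent assay reads. Both match the transcript over their whole length, so no part is in capitals.
Mrap forward: ctgaaagccaacaagcattccat
Mrap reverse: agagggaggttgaagctgtg
The forward primer covers transcript bases 331 to 353 and spans the junction of exons 1 and 2, at chr16:90738654-90738669 and chr16:90747524-90747530. The reverse primer lies in exon 3, at chr16:90749268-90749287, and the product has 173 bases. The product thus joins all 3 exons, and no stretch of 31 bases of the transcript was found in another gene. In its RT-qPCR of selected adipogenic genes, the study reported all but C/EBPα as lower upon CACUL1 overexpression and higher upon depletion. Its text does not list the other genes by name, so no RT-qPCR value of Mrap is given here.

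The 8 genes did not share a direction, since 3 were above 0 and 5 below 0 in each comparison. In FLAG-CACUL1 1 of 8 was at least 2-fold lower (Mrap) and none was higher, where 7.22% of all genes were lower and 7.51% higher. In sh-CACUL1 1 of 8 was higher (Mrap) and 2 were lower (Prkar1a and Pde4d), where 4.94% of all genes were higher and 16.4% lower. Among genes with at least 1 FPKM in a sample, 16.9% and 24.4% passed 2-fold in either direction. The 8 genes had median log2 fold changes of -0.50 for FLAG-CACUL1 and -0.35 for sh-CACUL1, and all genes had 0.09 and -0.30. Between FLAG and sh-Luc 2 of the 8 genes passed the cut-off, Mrap and Prkar1a, where 21% of all genes did.

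Alternative scalings between samples were quantile normalization, which gives all samples one distribution, and median-of-ratios scaling, which divides each sample by its median ratio to the geometric mean of the samples. They mattered for sh-CACUL1, where the all-gene median moved from -0.30 to -0.01 after quantile normalization and to 0.01 after median-of-ratios scaling. Relative to that median, the log2 fold changes in sh-CACUL1 were 5.06 for Mrap, 1.06 for Adcy6, 0.56 for Prkaca, 0.13 for Prkar2b, -0.23 for Creb1, -0.42 for Gnas, -0.88 for Prkar1a and -1.07 for Pde4d. Mrap and Pde4d passed the cut-off under every scaling, Prkar1a only as deposited and Adcy6 only after rescaling. In both comparisons with the own-vector control Mrap, Adcy6 and Prkaca were lower in FLAG-CACUL1 and higher in sh-CACUL1, also after both scalings. Gnas, Prkar1a and Creb1 were higher in FLAG-CACUL1 and lower in sh-CACUL1. Pde4d was lower in both.

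**Figure D1:**
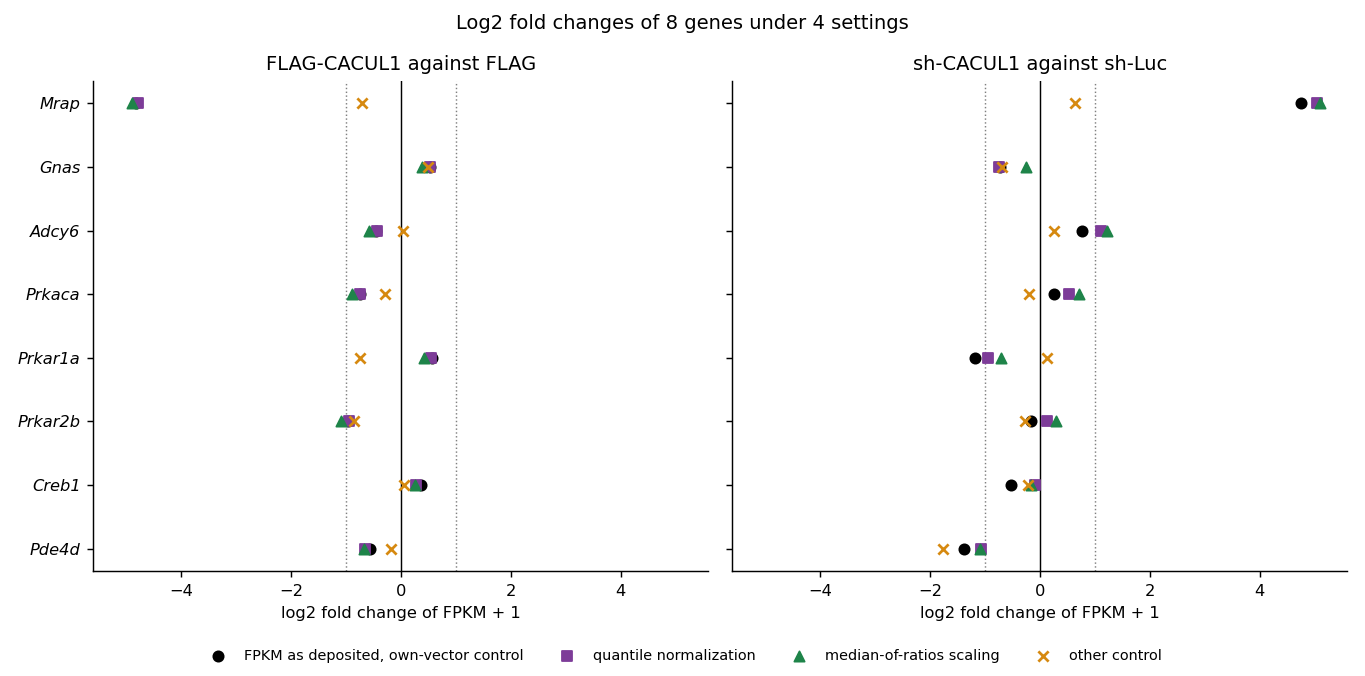
Points are the log2 fold changes of FPKM + 1 of the 8 genes in each condition, as deposited (black circles), after quantile normalization (purple squares), after median-of-ratios scaling (green triangles) and against the other control (orange crosses), with dotted lines at 2-fold. For Mrap the other control gave -0.71 and 0.65 in place of -4.83 and 4.76.

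Mrap differed most among the 8 genes in both comparisons. It had 29.7 FPKM in FLAG and 0.0825 in FLAG-CACUL1 cells, with 0.775 in sh-Luc against 47.0 in sh-CACUL1 cells. FLAG and sh-CACUL1 were thus high, and the other two lines were below 1 FPKM. The log2 fold change was -4.83 in FLAG-CACUL1 against FLAG, the 13th lowest of 13085 genes, and 4.76 in sh-CACUL1 against sh-Luc, the 6th highest. The low values rest on few fragments, since the estimated number was 431 in FLAG and 1 in FLAG-CACUL1 cells, with 19 in sh-Luc against 706 in sh-CACUL1 cells. Without the added 1, the FPKM ratio of FLAG to FLAG-CACUL1 was 360, with a 95% interval from 76.0 to 16855. The ratio of sh-CACUL1 to sh-Luc was 60.7 (95% interval from 37.8 to 99.4). These intervals cover counting error only and say nothing of the spread between cultures.

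The controls themselves differed for Mrap. FLAG exceeded sh-Luc by 4.11 on the log2 scale, a 17.3-fold difference in FPKM + 1 between lines without altered CACUL1. With the other control in its place, the log2 fold change of FPKM + 1 was -0.71 in FLAG-CACUL1 against sh-Luc. In sh-CACUL1 against FLAG it was 0.65, and both were under 2-fold on that scale. The first sets 0.0825 FPKM against 0.775, from about 1 and 19 fragments, and at such levels the added 1 narrows the ratio. The direction was therefore kept with either control, but the size was not. The order of the lines for Mrap, from sh-CACUL1 through FLAG and sh-Luc to FLAG-CACUL1, was also the order of the summed adipocyte markers, with Fabp4 or without it (5970, 4021, 821 and 644 FPKM). Only 6 of the 14 single markers followed that whole order, since FLAG exceeded sh-CACUL1 for 6 of them, Plin1 and Pparg included. For 12 of the 14, FLAG and sh-CACUL1 were both above the other two lines. Relative to the own-vector control, 14 of the 14 markers were lower by 2-fold or more upon overexpression and 13 were higher by as much upon depletion. Over all genes 7.22% were lower in the first comparison and 4.94% higher in the second. FLAG exceeded sh-Luc by 2-fold or more for 12 of the 14 markers and for 1123 of 13085 genes. The part of the markers in the Mrap result was not tested.

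**Figure D2:**
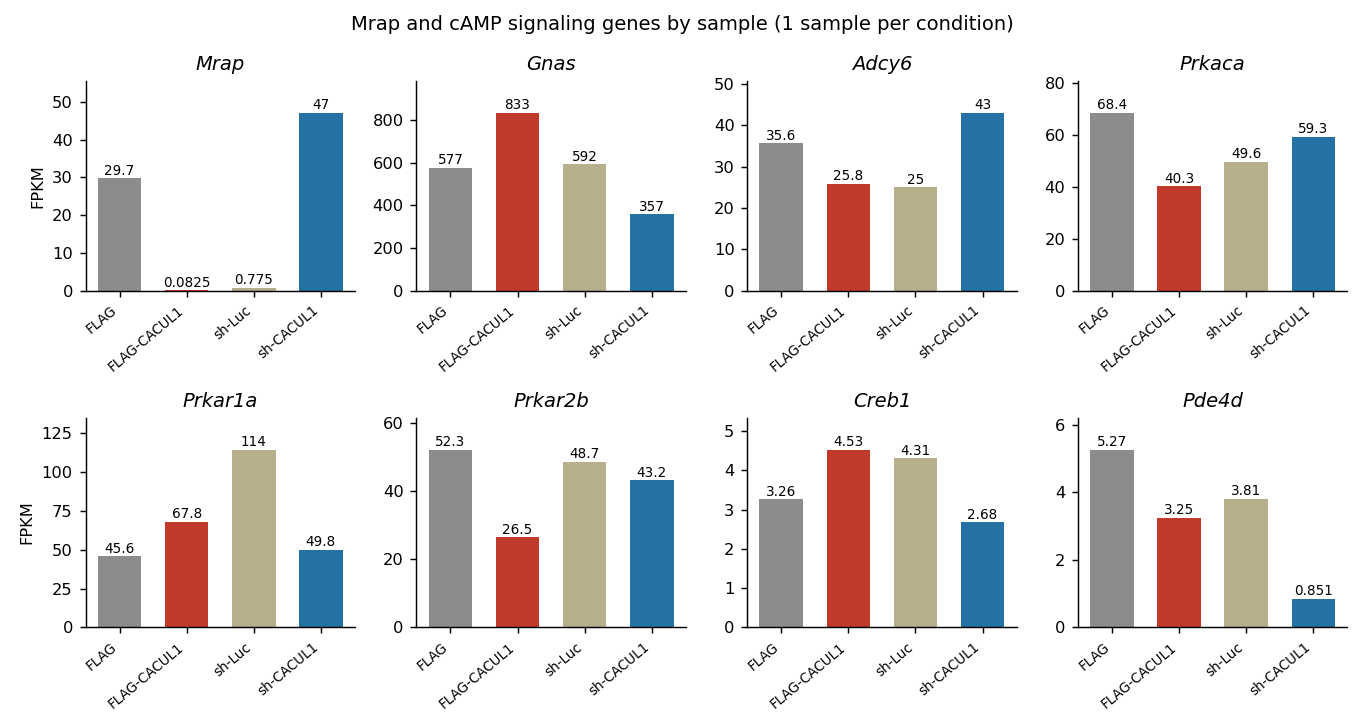
Each bar is the FPKM of 1 gene in 1 sample, on a linear axis from 0 that differs between panels, with the value above the bar. Mrap was below 1 FPKM in FLAG-CACUL1 and sh-Luc, while Adcy6 and Prkaca differed by no more than 1.72-fold across the 4 samples.

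Receptors that raise cAMP through the stimulatory G protein were represented by 15 measured genes of 29 listed, Mrap and other accessory proteins included. In FLAG-CACUL1 cells 5 of the 15 were lower by 2-fold or more and 1 was higher, and in sh-CACUL1 cells 5 were higher and 1 was lower. Over all genes the shares were 7.22% lower and 7.51% higher in the first comparison, and 4.94% higher and 16.4% lower in the second. Mrap, Mc2r, Mc5r and Ramp2 passed 2-fold in both comparisons, each lower in FLAG-CACUL1 and higher in sh-CACUL1. The share of all genes that did so was not computed, so this count has no background. Against the other control the log2 fold changes were 0.43 and -0.35 for Mc2r and 0.23 and -0.32 for Ramp2. Neither gene thus kept its directions, whereas Mc5r, with -0.26 and 1.06, kept both. Mc2r, the receptor that requires Mrap, had 2.26 FPKM in FLAG and 0.421 in FLAG-CACUL1 cells, with 0.0555 in sh-Luc against 1.55 in sh-CACUL1 cells. Its log2 fold changes were -1.20 and 1.27, and its sh-Luc value corresponds to about 2 fragments. The FPKM ratio of sh-CACUL1 to sh-Luc was 27.9 (95% counting interval from 7.86 to 260). Mc2r was thus high in the same samples as Mrap, at a far lower level.

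Where 4 FPKM values follow each other here, they are those of FLAG, of FLAG-CACUL1, of sh-Luc and of sh-CACUL1, in that order. Mc5r, another melanocortin receptor, had 1.69, 0.136, 0.361 and 4.61 FPKM, with log2 fold changes of -1.24 and 2.04. Ramp2, which pairs with the calcitonin receptor-like receptor to form an adrenomedullin receptor, had 7.004, 0.969, 0.680 and 5.43 FPKM in the same order, with log2 fold changes of -2.02 and 1.94. Both were low in FLAG-CACUL1 and sh-Luc, as Mrap was. The partner gene of Ramp2, Calcrl, had a different pattern, with 7.70, 11.1, 11.3 and 1.44 FPKM and log2 fold changes of 0.48 and -2.34. Adrb3, the β-adrenergic receptor typical of mouse white fat, had 1.46, 0.102, 0.259 and 1.28 FPKM. Its log2 fold changes of FPKM + 1 were -1.16 and 0.86, so that only FLAG-CACUL1 passed the cut-off on that scale. Without the added 1, the Adrb3 FPKM ratio of sh-CACUL1 to sh-Luc was 4.97, from about 54 and 17 fragments. The counting interval of that ratio, from 2.90 to 9.36, lay above 2-fold. Calcrl and Adrb3 were chosen after their values were seen.

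**Figure D3:**
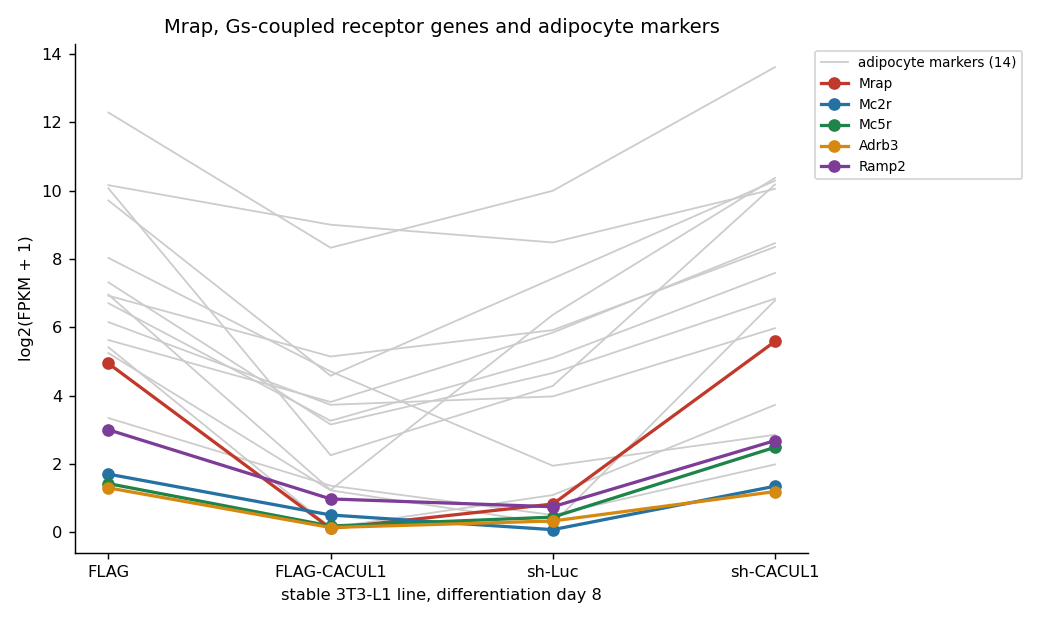
Lines join the log2(FPKM + 1) of 1 gene over the 4 samples, with 14 adipocyte markers in grey and Mrap, Mc2r, Mc5r, Adrb3 and Ramp2 in colour. The 5 coloured genes were higher in FLAG and sh-CACUL1 than in FLAG-CACUL1 and sh-Luc, and the lines between samples only guide the eye.

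Receptors that lower cAMP through the inhibitory G protein differed in both directions. Of 7 measured genes, 2 were at least 2-fold higher and 2 lower in FLAG-CACUL1, and 2 were higher and 5 lower in sh-CACUL1, to be read against the same all-gene shares. Ffar2, a receptor for short-chain fatty acids, had 7.75, 0.386, 0.391 and 17.4 FPKM. Hcar1, the lactate receptor that restrains lipolysis in fat cells, had 3.51, 0.0215, 0.256 and 2.14 FPKM. The log2 fold changes were -2.66 and 3.72 for Ffar2 and -2.14 and 1.32 for Hcar1. Lpar1, a receptor for lysophosphatidic acid, had 11.5, 30.7, 17.3 and 3.35 FPKM, and Npy1r, a neuropeptide Y receptor, had 0.583, 5.27, 3.39 and 0.183 FPKM. Their log2 fold changes were 1.34 and -2.07 for Lpar1 and 1.98 and -1.89 for Npy1r. Ffar2 and Hcar1 were thus high where Mrap was high, and Lpar1 and Npy1r were high where Mrap was low.

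Gnas lies at chr2:174284320-174346744 on the plus strand, and its row joins 8 transcripts. It was the most abundant of the 8 genes in every sample, with 577 FPKM in FLAG and 833 in FLAG-CACUL1 cells, with 592 in sh-Luc against 357 in sh-CACUL1 cells. The controls were alike, with a log2 ratio of -0.04, while FLAG-CACUL1 was the highest and sh-CACUL1 the lowest. The log2 fold changes of 0.53 and -0.73 did not reach 2-fold, and against the other control they were 0.49 and -0.69. After median-of-ratios scaling the second was -0.25. Gnas exons overlap those of the antisense gene Nespas over 988 bases and those of Gm20721 over 1469 bases, and the strand of the library is not given in the sources used here, so their fragments could not be separated. Gnas made up 41.4%, 47.6%, 43.0% and 41.1% of the summed FPKM of 13 measured G protein subunits.

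Among those 13 subunits, 1 was at least 2-fold higher and 1 lower in FLAG-CACUL1, and 3 were lower in sh-CACUL1. These counts are near what all genes gave, 7.51% higher and 7.22% lower in the first comparison and 16.4% lower in the second. The last count depended on the scaling between samples, with 2 higher and 2 lower after quantile normalization and 2 higher and 1 lower after median-of-ratios scaling. Gnai3, an inhibitory α subunit, had 34.8, 43.9, 50.9 and 18.4 FPKM and log2 fold changes of 0.32 and -1.42. Gnb5, a β subunit that binds RGS proteins, had 13.2, 5.39, 4.58 and 8.26 FPKM and log2 fold changes of -1.16 and 0.73. Gnb4 and Gng12, a β and a γ subunit, had log2 fold changes of 0.07 and -1.60 and of 0.69 and -1.10.

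Adcy6, an adenylyl cyclase that calcium inhibits, lies at chr15:98589973-98610076 on the minus strand and has 22 exons. It had 35.6 FPKM in FLAG and 25.8 in FLAG-CACUL1 cells, with 25.0 in sh-Luc against 43.0 in sh-CACUL1 cells. As for Mrap, FLAG and sh-CACUL1 were the higher samples, but the range was narrow. The log2 fold changes were -0.45 and 0.76. The second was 1.11 after quantile normalization and 1.22 after median-of-ratios scaling, past the cut-off. Against the other control the values were 0.04 and 0.26, so that the direction in FLAG-CACUL1 was not kept. Its exons overlap the antisense gene Gm29331 over 605 bases. Adcy6 made up 82.2%, 86.4%, 89.8% and 97.0% of the summed FPKM of 6 measured adenylyl cyclases, in the same order of samples.

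On the scale of FPKM + 1, without rescaling, Adcy3 was the only one of the 6 cyclases past 2-fold. With no pseudocount 3 of the 6 passed in each comparison. The counts over all genes rose as well, from 1928 to 3775 in FLAG-CACUL1 and from 2788 to 4799 in sh-CACUL1. Adcy3 had 3.83, 0.448, 1.72 and 0.177 FPKM, and its log2 fold changes of -1.74 and -1.21 were both negative.

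PKA is a tetramer of regulatory and catalytic subunits, and the regulatory subunits set its sensitivity to cAMP and its place in the cell. Prkaca, the main catalytic subunit, lies at chr8:83972993-83996443 on the plus strand. It had 68.4 FPKM in FLAG and 40.3 in FLAG-CACUL1 cells, with 49.6 in sh-Luc against 59.3 in sh-CACUL1 cells. FLAG was the highest sample and FLAG-CACUL1 the lowest, and the log2 fold changes were -0.75 and 0.25. In sh-CACUL1 against the other control the sign was opposite, at -0.20. Prkaca made up 80.0%, 69.3%, 70.6% and 85.9% of the FPKM of Prkaca and Prkacb together.

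Prkar1a encodes the type I regulatory subunit that is found in most tissues, and it lies at chr11:109649405-109669656 on the plus strand. It had 45.6 FPKM in FLAG and 67.8 in FLAG-CACUL1 cells, with 114 in sh-Luc against 49.8 in sh-CACUL1 cells. The sh-Luc sample stood above the other 3. The log2 fold changes were 0.56 upon overexpression and -1.18 upon depletion of CACUL1, and FLAG was lower than sh-Luc by a log2 ratio of -1.31. The decrease in sh-CACUL1 was under 2-fold after quantile normalization (-0.95) and after median-of-ratios scaling (-0.72). Against FLAG the sh-CACUL1 value was 0.12, and FLAG-CACUL1 against sh-Luc was -0.74. Neither direction was therefore kept with the other control. The row holds 1 of 8 curated transcripts of the gene, and other first exons were not measured separately.

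Prkar2b, the type II regulatory subunit abundant in fat and brain, lies at chr12:31958476-32061296 on the minus strand. It had 52.3 FPKM in FLAG and 26.5 in FLAG-CACUL1 cells, with 48.7 in sh-Luc against 43.2 in sh-CACUL1 cells. FLAG-CACUL1 stood below the other 3 samples, which lay close together. The log2 fold change in FLAG-CACUL1 was -0.96, just under the cut-off, and -1.09 after median-of-ratios scaling. With sh-Luc as control it was -0.86. The value in sh-CACUL1 was -0.17 and turned to 0.14 after quantile normalization and 0.30 after median-of-ratios scaling.

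The balance of the regulatory subunits differed between lines. The ratio of Prkar1a to Prkar2b, taken within each sample, was 0.872 in FLAG and 2.56 in FLAG-CACUL1 cells, with 2.34 in sh-Luc against 1.15 in sh-CACUL1 cells. Prkar1a made up 41.5%, 67.1%, 67.0% and 50.3% of the FPKM of the 4 regulatory subunits, and Prkar2b made up 47.6%, 26.2%, 28.6% and 43.7%. The type I share was thus higher in the lines with lower adipocyte marker sums, FLAG-CACUL1 and sh-Luc. In FLAG-CACUL1 the ratio above that of FLAG came with less Prkar2b (log2 fold change -0.96) and more Prkar1a (0.56). In sh-CACUL1 the ratio below that of sh-Luc came with less Prkar1a (-1.18) and little difference in Prkar2b (-0.17). That pair thus rests on the high Prkar1a value of sh-Luc, 114 FPKM. The ratio of summed regulatory to summed catalytic FPKM was 1.28, 1.74, 2.43 and 1.43. These ratios were chosen after the values were seen.

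**Figure D4:**
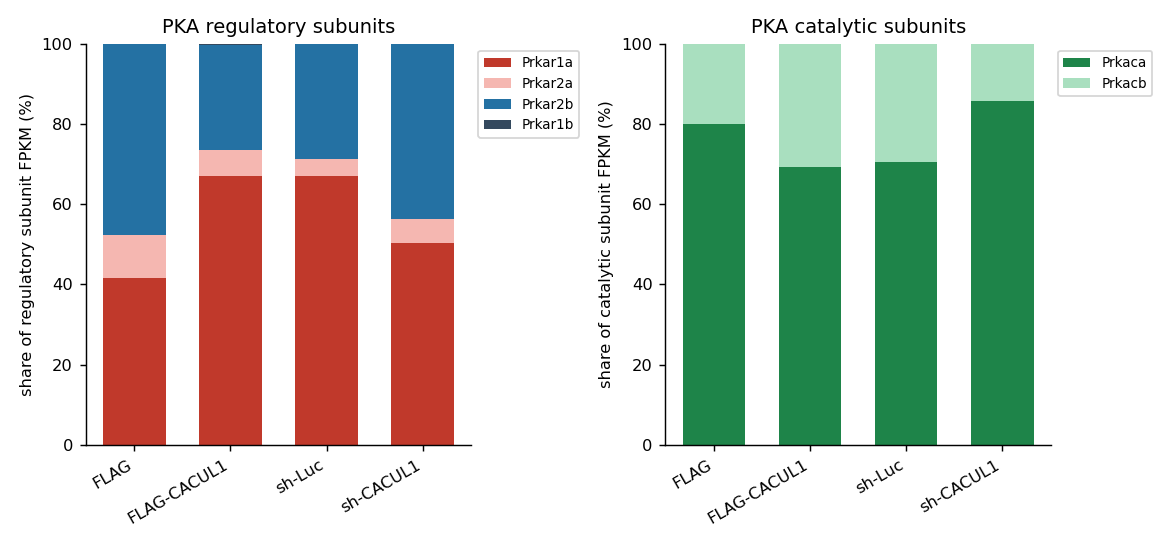
Stacked bars give the share of each PKA subunit in the summed FPKM of the regulatory subunits (left) and the catalytic subunits (right), in percent, for each of the 4 samples. The Prkar1a share was 67.1% in FLAG-CACUL1 and 67.0% in sh-Luc, against 41.5% in FLAG and 50.3% in sh-CACUL1.

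Of 9 measured PKA subunits and inhibitors, 1 was at least 2-fold higher in FLAG-CACUL1 and 3 were lower in sh-CACUL1, beside 7.51% and 16.4% of all genes. None of the 3 passed the cut-off after quantile normalization or median-of-ratios scaling. Pkia, an inhibitor of the catalytic subunit, had 0.339, 2.38, 1.93 and 0.362 FPKM and log2 fold changes of 1.34 and -1.11. Of 12 A-kinase anchoring proteins, which hold PKA near its substrates, 1 was higher and 1 lower in FLAG-CACUL1 and 3 were lower in sh-CACUL1. The all-gene shares were 7.51%, 7.22% and 16.4%, so the counts of anchoring proteins are near that background. Akap1, an anchor at the mitochondrial surface, had 24.6, 9.99, 16.8 and 18.8 FPKM and log2 fold changes of -1.22 and 0.15. Akap11, Akap13 and Akap2 had log2 fold changes of -1.16, -1.12 and -1.11 in sh-CACUL1, and after either scaling 0 anchoring proteins were 2-fold lower there and 1 was higher. Rapgef3, a cAMP sensor that acts without PKA, had 0.330, 1.61, 4.51 and 1.06 FPKM and log2 fold changes of 0.97 and -1.42.

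Creb1, the transcription factor that PKA phosphorylates, lies at chr1:64532645-64604548 on the plus strand. It had 3.26 FPKM in FLAG and 4.53 in FLAG-CACUL1 cells, with 4.31 in sh-Luc against 2.68 in sh-CACUL1 cells. The samples lay close together, and the log2 fold changes were 0.38 and -0.53. The second was -0.09 after quantile normalization. Creb1 made up 4.30% to 6.01% of the summed FPKM of 8 CREB family genes and coactivators, while Atf1, a close relative of Creb1, made up 32.3% to 44.0%. Of these 8 genes, 1 was at least 2-fold lower in FLAG-CACUL1 and 3 were lower in sh-CACUL1, where 7.22% and 16.4% of all genes were lower. After either scaling none of the 3 passed the cut-off in sh-CACUL1 and 1 gene was higher. Crtc2, a coactivator that enters the nucleus when cAMP is high, had 27.6, 12.3, 17.7 and 14.2 FPKM and log2 fold changes of -1.11 and -0.30. The acetyltransferase genes Ep300 and Crebbp had log2 fold changes of -1.21 and -1.19 in sh-CACUL1, and Atf1 had -1.04.

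The cAMP response element TGACGTCA, which CREB binds, was searched on both strands of RefSeq promoter windows of 300 bases that span each start, on GRCm38.p6. Windows were found for 6 of the 8 genes, and none were found for Mrap and Adcy6. The element was present in 1 of the 6, Prkar1a, and in 2.03% of 27025 genes overall. A gene counted if any of its windows matched, and the 6 genes had 16 windows, more per gene than all genes, which had 32851. By window the element was present in 2 of the 16, both of Prkar1a, and in 1.79% of all windows. Among 15 listed cAMP-inducible genes with a window it was present in 2, Dusp1 and Dio2. The stretches of Prkar1a (chr11:109650889-109650918, plus strand) and of Dusp1 (chr17:26508597-26508626, minus strand), a phosphatase gene induced by cAMP, are shown with the element in capitals, to set the one match among the 8 genes beside that of an inducible gene.
Prkar1a: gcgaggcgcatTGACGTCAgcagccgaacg
Dusp1: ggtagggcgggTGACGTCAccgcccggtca
In Prkar1a the element ends 13 bases before the start of the measured transcript. The shorter core TGACG, which the full element contains, was present in 3 of the 6 genes, in 14 of the 15 cAMP-inducible genes and in 23.0% of all genes. By window it was present in 7 of the 16 windows of the 6 genes and in 20.8% of all windows. A direct repeat bound by PPARγ, AGGTCANAGGTCA, was found in none of the 6 and in 0.0481% of all genes. Since only 13 of 27025 genes held this exact match, its absence from 6 genes says nothing about PPARγ binding at them.

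Pde4d, a phosphodiesterase that degrades cAMP and is itself induced by it, lies at chr13:108449948-109953461 on the plus strand. It had 5.27 FPKM in FLAG and 3.25 in FLAG-CACUL1 cells, with 3.81 in sh-Luc against 0.851 in sh-CACUL1 cells, from an estimated 195, 119, 233 and 33 fragments. The sh-CACUL1 sample was the lowest, and the other 3 lay close together. The log2 fold changes were -0.56 upon overexpression and -1.38 upon depletion, and against the other control they were -0.18 and -1.76. The decrease in sh-CACUL1 was -1.08 after quantile normalization and after median-of-ratios scaling. Pde4d was thus at least 2-fold lower in sh-CACUL1 than in either control.

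Of 10 measured phosphodiesterases, 1 was at least 2-fold higher and 2 were lower in FLAG-CACUL1, beside 7.51% and 7.22% of all genes. On the scale of FPKM + 1, Pde4d was the only one past the cut-off in sh-CACUL1, where 16.4% of all genes were lower. In sh-CACUL1 5 of the 10 passed with a pseudocount of 0.1 and 7 with none. Over all genes the count there rose from 2788 to 4163 and 4799. The summed FPKM of the 10 was 53.8 in FLAG and 36.8 in FLAG-CACUL1 cells, with 23.6 in sh-Luc against 15.5 in sh-CACUL1 cells. Pde2a, which cGMP stimulates, had 15.8, 3.15, 1.20 and 0.459 FPKM and log2 fold changes of -2.01 and -0.59. Pde1b and Pde1a, which calcium and calmodulin activate, had log2 fold changes of -1.73 and -0.55 and of 1.21 and 0.30. Pde3b, through which insulin lowers cAMP in fat cells, had 12.7, 6.54, 1.10 and 0.0746 FPKM, and it was chosen after its values were seen. Its log2 fold changes of FPKM + 1 were -0.86 and -0.97, and FLAG exceeded sh-Luc by 2.70. Its sh-Luc and sh-CACUL1 values correspond to about 174 and 7 fragments. For Pde2a and Pde3b both FLAG lines were above both hairpin lines, and the highest and lowest samples, FLAG and sh-CACUL1, were those with the highest adipocyte marker sums.

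Genes that cAMP is known to induce included 13 measured genes, of which 10 were below 0 in each comparison. Over all genes 41.3% were below 0 in FLAG-CACUL1 and 68.7% in sh-CACUL1, so the count in sh-CACUL1 is near that of all genes. Of the 13, 4 were lower by 2-fold or more upon overexpression and 2 upon depletion, with no gene higher in either, where 7.22% and 16.4% of all genes were lower. The median log2 fold changes were -0.63 and -0.64, against 0.09 and -0.30 over all genes. After median-of-ratios scaling the second was -0.19, with 1 gene higher and 2 lower. Per1, a clock gene, had 23.4, 4.94, 22.1 and 13.8 FPKM and log2 fold changes of -2.04 and -0.64. Nr4a1, an orphan nuclear receptor, had 11.5, 2.38, 15.9 and 9.05 FPKM, and Fos, an immediate early gene, had 4.83, 0.593, 3.15 and 1.92 FPKM. Their log2 fold changes were -1.88 and -0.75 for Nr4a1 and -1.87 and -0.51 for Fos. Each of these 3 genes was lowest in FLAG-CACUL1. Junb, also an immediate early gene, had 51.9, 30.9, 33.5 and 7.92 FPKM and log2 fold changes of -0.73 and -1.95. Such genes also respond to serum and to medium change, whose timing before RNA extraction is not given in the sources used here. Of 6 receptor desensitization genes none passed the cut-off in either comparison, and the values nearest to it were those of Arrb1 (-0.97) and Rgs2 (-0.86) in FLAG-CACUL1. In FLAG-CACUL1 1 of the 6 was at least 2-fold lower after quantile normalization or median-of-ratios scaling. With a pseudocount of 0.1 or none, 1 passed there too. Over all genes as deposited, 7.22% were lower and 7.51% higher in FLAG-CACUL1, and 16.4% were lower and 4.94% higher in sh-CACUL1. Counts this small among 6 genes are close to those shares, so they say little about these genes.

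**Figure D5:**
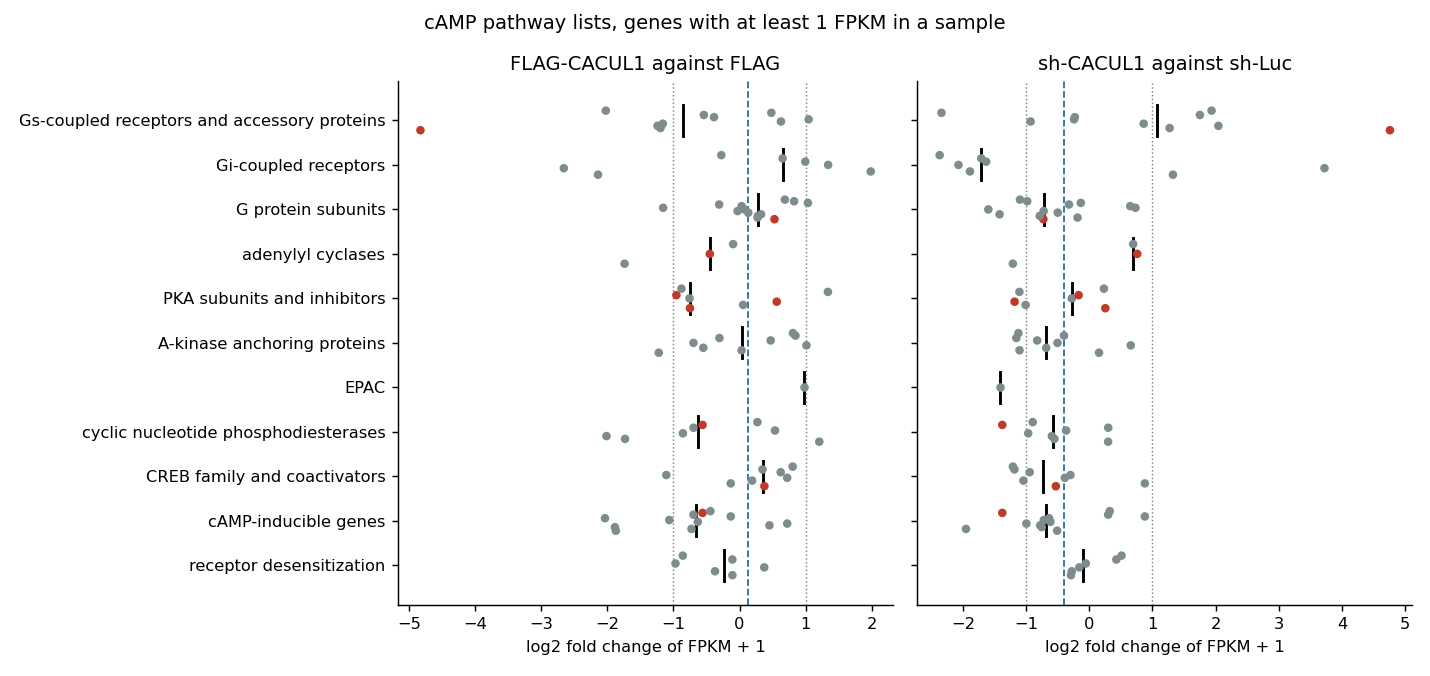
Each point is the log2 fold change of FPKM + 1 of 1 gene with at least 1 FPKM in a sample, in the list named on the left, with the 8 genes in red and the list median as a black bar. Dotted lines mark 2-fold and the dashed line is the median of all such genes, which was 0.13 in the left panel and -0.41 in the right.

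The genes nearest to each of the 4 genes that spanned at least 1 on the log2 scale were found by Euclidean distance of centred log2(FPKM + 1), over 11412 genes and only 4 samples. Nearest to Mrap were Eif3j1 (distance 0.79), Fam213a (0.98) and Fabp4 (1.30), a fatty acid carrier that marks adipocytes. Eif3j1 shares 41.0% of its 31-base stretches with Eif3j2, so its value is uncertain. Fabp4 had 4991 FPKM in FLAG and 320 in FLAG-CACUL1 cells, with 1020 in sh-Luc against 12543 in sh-CACUL1 cells. Nearest to Gnas were Mtpn, Fam171a1 and Rock1, with distances from 0.077 to 0.086. Nearest to Prkar1a were Cabin1, Cdk1 and Man1a2, with distances from 0.054 to 0.080. Nearest to Pde4d were Lamb1, Itga5 and Gpr137b-ps, with distances from 0.060 to 0.0998, and Gpr137b-ps shares 72.2% of its 31-base stretches with Gpr137b.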

How the data were processed

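Total RNA of 4 stable 3T3-L1 lines was sequenced once each, by a company that also prepared the libraries. The authors deposited FPKM values in 13110 rows named by RefSeq transcripts, and no counts were used. The submitters' processing notes name mm10, while the aligner, the program that computed FPKM and the library strand are not given in the sources used here. Symbols were assigned through GENCODE M21, 196 rows had none, and rows of 1 symbol were summed (13085 genes). The pseudocount was 1 FPKM and the cut-off 2-fold. Depth was estimated from steps in FPKM of rows of 1 transcript of at least 3000 bases. The 95% intervals treat estimated fragments as Poisson counts and cover counting error only.

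Members and pathway lists were chosen with earlier results of these data known. From each list the genes past 2-fold in both comparisons were named, and otherwise up to 4 with the largest change among genes with at least 1 FPKM in a sample. Adrb3, Calcrl, Pde3b and Dusp1 were named outside this rule. For each of the 8 genes that spanned at least 1 on the log2 scale, the 3 nearest genes were named. Alternatives were a pseudocount of 0.1 or none, quantile normalization, median-of-ratios scaling, the other control, the highest row of a symbol, a 3-fold cut-off and 2 filters at 1 FPKM. The code was tested on simulated data. Computations used Python 3.11.15, numpy 2.4.6, scipy 1.17.1, pandas 2.3.3 and matplotlib 3.10.9.

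Marker lists for other cells were also checked. Macrophage markers (3 of 6 measured) summed to 24.9 FPKM for FLAG and 68.3 for FLAG-CACUL1, and to 6.11 for sh-Luc and 2.91 for sh-CACUL1. The higher sum in FLAG-CACUL1 is that of Lyz2 alone (8.12 FPKM in FLAG, 66.5 in FLAG-CACUL1), while Cd68 had 16.2 and 1.44 FPKM and Csf1r 0.607 and 0.397 FPKM. The only measured endothelial marker, Pecam1, was at most 0.301 FPKM. The 2 measured adrenal cortex markers, which include Mc2r, summed to 0.888 to 2.89 FPKM, and Ppargc1a, the only measured brown or beige adipocyte marker, had 0.995 to 4.14 FPKM.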

Additional observations from a re-analysis of the deposited data

How the results depend on the processing

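No paired analysis was possible because each condition had 1 sample, and leaving out a replicate was not possible for the same reason. In FLAG-CACUL1 the number of the 8 genes past 2-fold was 1, and it was 2 after median-of-ratios scaling (Prkar2b added), 0 against the other control and 0 when every sample had to reach 1 FPKM, which removes Mrap and Pde4d. Their median of -0.50 became -0.24 against the other control and -0.037 with that filter. The Mrap value of -4.83 became -7.35 with a pseudocount of 0.1, -8.49 with none and -0.71 against the other control. In sh-CACUL1 the number was 3. It was 1 against the other control (Pde4d), 1 at a 3-fold cut-off (Mrap) and 1 with that filter (Prkar1a), a different gene each time. The median of -0.35 became 0.027 after quantile normalization, 0.065 after median-of-ratios scaling and -0.21 against the other control. The Mrap value of 4.76 became 5.75 with a pseudocount of 0.1, 5.92 with none, 5.10 after median-of-ratios scaling and 0.65 against the other control. The value of Prkar1a in sh-CACUL1 reversed from -1.18 to 0.12 against the other control. Over all genes 1928 passed 2-fold in FLAG-CACUL1, against 3161 with a pseudocount of 0.1, 3775 with none and 663 at 3-fold, and 2788 passed in sh-CACUL1, against 4799 with no pseudocount and 936 at 3-fold. The split of higher and lower genes was 983 and 945 in FLAG-CACUL1, 831 and 1020 after quantile normalization and 755 and 1169 after median-of-ratios scaling. In sh-CACUL1 it was 647 and 2141, 1178 and 1084, and 1231 and 975, respectively. Where no construction of the alternative shows it, the cause was not tested. Taking the highest row of a symbol, or only genes with at least 1 FPKM in at least 1 sample, kept all results computed within their limits. The limit was counting error for log2 fold changes and their median, and a fixed ratio for counts of genes. At the depth of FLAG-CACUL1, 1 fragment on 1 kb is worth 0.070 FPKM, and the Mrap transcript has 1001 bases. Levels of Mrap below that of a few fragments were therefore not distinguishable.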
